A study of Homo sapiens with 5 samples.

Results

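The 9 genes described here encode the enzymes of serine synthesis and of the folate one-carbon cycle: PHGDH, PSAT1, PSPH, SHMT1, SHMT2, MTHFD1, MTHFD2, MTHFD1L and ALDH1L2. They were listed by symbol and matched by Ensembl ID among the 58812 genes of the deposited count table. All 9 were found, and all 9 passed the filter on low counts, as did 20649 genes in all. RNA was sequenced in 5 libraries, after removal of ribosomal RNA, from C4-2B, a human line of metastatic, castration-resistant prostate cancer. Clone C4K13A has 2 libraries and clone C5K13A has 1, both carrying the K13A mutation of the prostate homeobox factor HOXB13, and unmutated parental C4-2B has 2. In that mutant, alanine replaces lysine 13, an acetylation site. All cells were grown in the same C4-2B medium. Each mutant line is 1 clone, so a property of the clone and an effect of the mutation cannot be told apart.

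Serine is made from the glycolytic intermediate 3-phosphoglycerate in 3 steps, catalysed in turn by PHGDH, PSAT1 and PSPH. Serine hydroxymethyltransferase then moves a carbon from serine to tetrahydrofolate and leaves glycine. The folate cycle runs in both mitochondria and cytosol with separate enzymes: in mitochondria the carbon is mostly oxidised to formate, which leaves for the cytosol and feeds purine and thymidylate synthesis. Several of these genes are known targets of ATF4, the transcription factor of the amino acid response, and MTHFD2 is widely raised in tumours.

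The 3 promoters below show the pair of mitochondrial enzyme genes with the most similar values across these libraries, MTHFD1L and MTHFD2, and their cytosolic counterpart MTHFD1. Each runs from 250 bases before to 50 bases after a RefSeq start site on GRCh38.p14, in the direction of the gene. Capitals mark matches on either strand to TGATGNAA, the core of the element bound by ATF4 with its C/EBP partners, and to the E-box CACGTG; the motifs do not overlap each other. All 3 genes lie on the plus strand, MTHFD1L at chr6:150866197-150866496, MTHFD2 at chr2:74198365-74198664 and MTHFD1 at chr14:64388103-64388402.
MTHFD1L: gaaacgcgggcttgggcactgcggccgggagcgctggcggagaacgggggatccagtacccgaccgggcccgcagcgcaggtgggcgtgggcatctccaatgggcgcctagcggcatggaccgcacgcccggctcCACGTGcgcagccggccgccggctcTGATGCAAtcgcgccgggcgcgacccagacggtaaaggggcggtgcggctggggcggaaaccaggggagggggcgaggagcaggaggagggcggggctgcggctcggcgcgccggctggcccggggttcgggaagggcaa
MTHFD2: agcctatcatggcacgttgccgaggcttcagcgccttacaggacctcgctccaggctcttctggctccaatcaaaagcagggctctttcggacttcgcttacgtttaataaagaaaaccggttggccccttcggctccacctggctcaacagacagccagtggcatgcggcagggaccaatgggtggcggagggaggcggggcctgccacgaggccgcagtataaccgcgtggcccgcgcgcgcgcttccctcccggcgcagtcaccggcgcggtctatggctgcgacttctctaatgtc
MTHFD1: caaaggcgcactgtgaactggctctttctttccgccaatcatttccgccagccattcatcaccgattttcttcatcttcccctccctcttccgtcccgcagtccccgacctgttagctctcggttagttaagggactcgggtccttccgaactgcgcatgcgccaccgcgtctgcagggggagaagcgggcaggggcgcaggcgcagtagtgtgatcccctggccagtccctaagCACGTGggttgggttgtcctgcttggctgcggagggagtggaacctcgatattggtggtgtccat

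The MTHFD1L window shown held TGATGCAA at positions -90 to -83 from its start site and CACGTG at -115 to -110. MTHFD1L was the only one of these genes with more than 1 RefSeq window. From its other start sites the same TGATGCAA lay at -129 to -122 or at 25 to 32. Its window at chr6:151006758-151007057 held neither motif. The MTHFD1 window held CACGTG at -15 to -10, and the MTHFD2 window held neither motif. RefSeq windows were at hand for 6 of the 9 genes, namely PHGDH, PSAT1, SHMT1, MTHFD1, MTHFD2 and MTHFD1L. A gene was counted if any of its windows held the motif. TGATGNAA was found in 1 of these 6 genes, and in 4.46% of all 27305 genes with a window. CACGTG was found in 2 of the 6, against 8.77% of all genes. These are matches of letters in a short window and say nothing of binding.

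Total counts ran from 43190276 to 48442286 in the K13A libraries and were 57282373 and 51978974 in the parental ones. HOXB13 was at 344, 348 and 352 CPM in the K13A libraries, against 338 and 448 CPM in parental (log2 fold change -0.18 ± 0.17, adjusted p = 0.739, edgeR). CPM are counts relative to the library's total after TMM scaling, and these counts do not show the mutated codon. The summed level of 8 luminal prostate genes, KLK3 among them, was 4537 to 5524 CPM in the K13A libraries and 4553 and 6494 CPM in parental. KLK3 had the largest part, with 2287 to 2659 CPM in the K13A libraries and 3103 and 1859 CPM in parental. Over both clones 6 of the 8 had negative log2 fold changes and edgeR called 0, with TMPRSS2 at -1.36 ± 0.51 (adjusted p = 0.397). KLK2 was at 115 CPM in C5K13A, against 511 and 298 CPM in parental. Leukocyte and basal markers summed to at most 0.551 CPM, endothelial and fibroblast markers to at most 6.98 CPM, and CD3E and LUM were at 0 in all 5 libraries. Residual mitochondrial ribosomal RNA differed between libraries, with 65.4 and 353 CPM in the C4K13A libraries, 658 CPM in C5K13A, and 29.03 and 1723 CPM in parental libraries 1 and 2. The labels do not say whether the libraries of a group came from separate cultures. The p-values therefore reflect only how these libraries vary, and that variation may be technical.

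In the K13A clones, 7 of the 9 genes had lower fitted levels than in parental cells: the 3 serine synthesis genes and the 4 mitochondrial folate genes. The 2 cytosolic folate genes had higher fitted levels. For 6 genes all 3 K13A libraries lay below both parental libraries, namely PHGDH, PSAT1, SHMT2, MTHFD2, MTHFD1L and ALDH1L2; across all genes tested, 14.9% had this pattern. The median log2 fold change was -0.58 over the 9 genes and -0.00474 over all 20649 genes tested. The 9 were chosen with earlier results of these data known, so setting them beside all genes is a description and not a test. With edgeR's quasi-likelihood test and Benjamini-Hochberg adjustment over all genes, 0 of the 9 passed an adjusted p of 0.05, where 42 genes (0.203%) did. At an unadjusted p under 0.05 there were 6, the same 6 genes as above, where 11% of all genes reached it. DESeq2 called 2 of the 9 lower, MTHFD2 and MTHFD1L (2.8% of the 19846 genes with a DESeq2 adjusted p were called), and limma-voom called 0. A lower value in bulk RNA can come from fewer expressing cells or from less RNA per cell, which cannot be told apart.

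**Figure D1:**
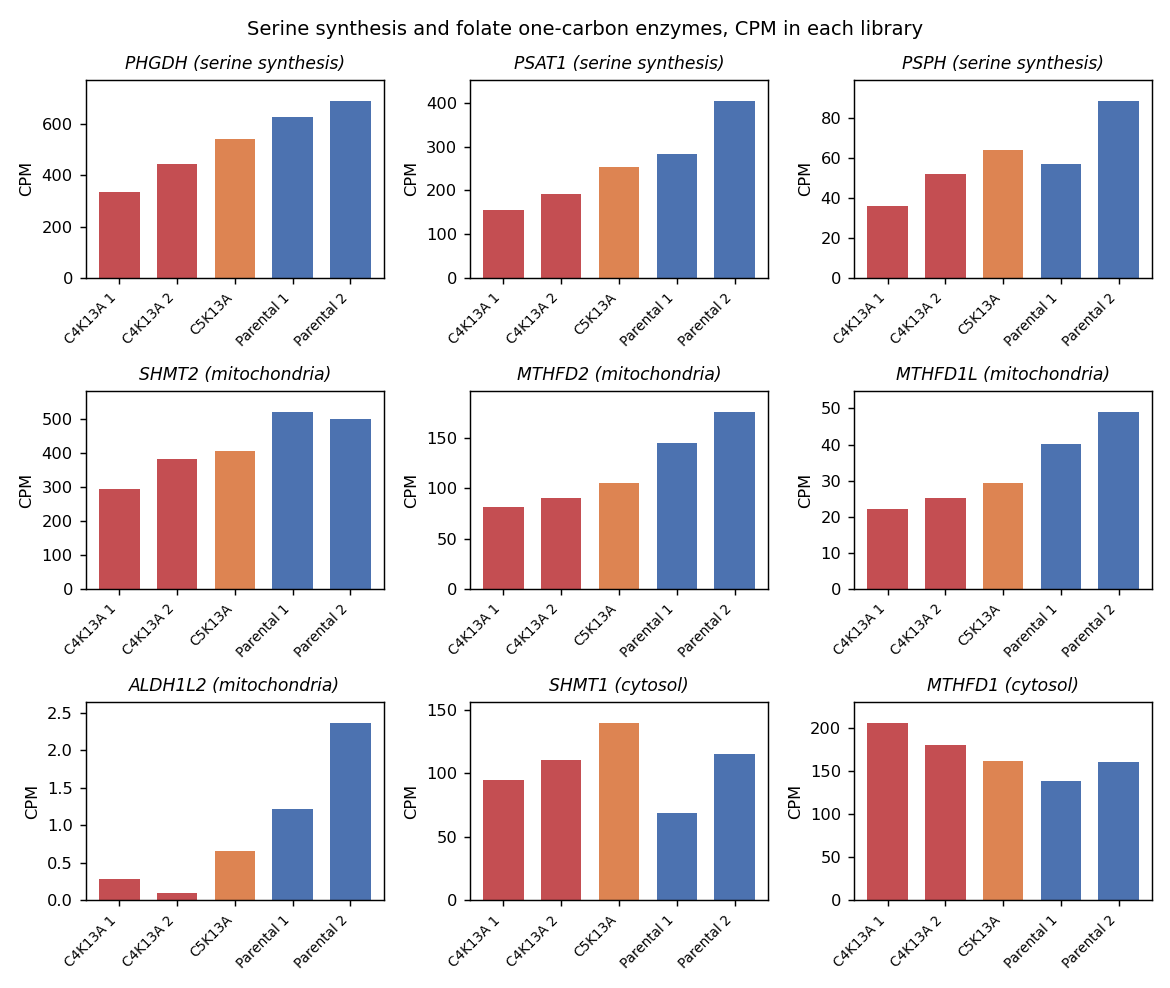
CPM (TMM-scaled counts relative to library total) of each of the 9 genes in the 2 C4K13A libraries (red), the C5K13A library (orange) and the 2 parental libraries (blue); each bar is 1 library and each panel has its own axis from 0. In PHGDH, PSAT1 and the 4 mitochondrial genes every K13A bar is below both parental bars, while in SHMT1 and PSPH the groups overlap.

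PHGDH, the dehydrogenase that commits 3-phosphoglycerate to serine synthesis (chromosome 1, 119648411 to 119744226, plus strand, GRCh38 in GENCODE v29), had 334 and 442 CPM in the C4K13A libraries and 540 CPM in C5K13A, against 624 and 688 CPM in parental. All K13A values were below the parental ones, with C5K13A nearest to them. Its log2 fold change was -0.58 ± 0.21 (SE, adjusted p = 0.379). PSAT1, the aminotransferase of the second step (chromosome 9, 78297143 to 78330093, plus strand), had 155 and 192 CPM in the C4K13A libraries and 253 CPM in C5K13A, against 283 and 404 CPM in parental. The groups did not overlap, with C5K13A close to parental library 1. The log2 fold change of PSAT1 was -0.78 ± 0.24 (adjusted p = 0.297). PSPH, the phosphatase that releases serine (chromosome 7, 56011051 to 56051604, minus strand), had 35.9 and 51.9 CPM in the C4K13A libraries and 63.8 CPM in C5K13A, against 56.9 and 88.5 CPM in parental. Here the groups overlapped, since C5K13A exceeded parental library 1 (-0.52 ± 0.27, adjusted p = 0.517).

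SHMT2, the mitochondrial serine hydroxymethyltransferase (chromosome 12, 57229327 to 57234935, plus strand), had 294 and 383 CPM in the C4K13A libraries and 406 CPM in C5K13A, against 519 and 498 CPM in parental. The parental libraries were close together and above every K13A library. Its log2 fold change was -0.49 ± 0.18 (adjusted p = 0.371). MTHFD2, the mitochondrial methylenetetrahydrofolate dehydrogenase and cyclohydrolase (chromosome 2, 74198562 to 74217565, plus strand), had 81.7 and 90.7 CPM in the C4K13A libraries and 105 CPM in C5K13A, against 145 and 175 CPM in parental. The gap between the groups was wider than the range within the K13A libraries. MTHFD2 had the smallest adjusted p of the 9 genes (0.181), at a log2 fold change of -0.79 ± 0.17.

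MTHFD1L, the mitochondrial enzyme that releases formate from 10-formyltetrahydrofolate (chromosome 6, 150865549 to 151101887, plus strand), had 22.3 and 25.4 CPM in the C4K13A libraries and 29.4 CPM in C5K13A, against 40.1 and 49.0 CPM in parental. Its values kept the order seen for MTHFD2 in every library. The log2 fold change of MTHFD1L was -0.79 ± 0.18 (adjusted p = 0.185). ALDH1L2, the mitochondrial enzyme that oxidises 10-formyltetrahydrofolate to carbon dioxide (chromosome 12, 105019784 to 105084577, minus strand), was scarce, with 14 and 4 counts in C4K13A and 28 in C5K13A, against 72 and 120 counts in parental. These correspond to 0.279, 0.0935 and 0.660 CPM in the K13A libraries and 1.21 and 2.36 CPM in parental. It had the largest fitted fold of the 9 with the widest error (-2.37 ± 0.69, adjusted p = 0.279). Exons of ALDH1L2 share 145 bases with C12orf45 on the other strand, which had 2517 counts over the 5 libraries where ALDH1L2 had 238, and the strand setting of the counting is not given in the sources used here. C12orf45 was at 8.72 to 11.4 CPM in the K13A libraries and 10.4 and 10.8 CPM in parental.

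SHMT1, the cytosolic serine hydroxymethyltransferase (chromosome 17, 18327860 to 18363563, minus strand), had 94.8 and 111 CPM in the C4K13A libraries and 140 CPM in C5K13A, against 69.0 and 115 CPM in parental. The groups overlapped, and parental library 2 exceeded both C4K13A libraries. The log2 fold change of SHMT1 was 0.32 ± 0.25 (adjusted p = 0.682) and -0.00396 without parental library 1, so its direction rested on that library. MTHFD1, the trifunctional cytosolic enzyme that makes 10-formyl- and 5,10-methylenetetrahydrofolate from formate (chromosome 14, 64388031 to 64463457, plus strand), had 206 and 180.3 CPM in the C4K13A libraries and 162 CPM in C5K13A, against 139 and 161 CPM in parental. All K13A values were above the parental ones, C5K13A only just, and 13.6% of all genes tested had this pattern. Its log2 fold change was 0.28 ± 0.17 (adjusted p = 0.573). Exons of SHMT1 share 196 bases with SMCR8 and those of MTHFD1 share 178 bases with ZBTB25, both on the opposite strand. SMCR8 was at 33.3 to 45.6 CPM in the K13A libraries and 44.1 and 46.0 CPM in parental, and ZBTB25 at 23.3 to 23.6 CPM and 23.6 and 20.9 CPM.

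**Figure D2:**
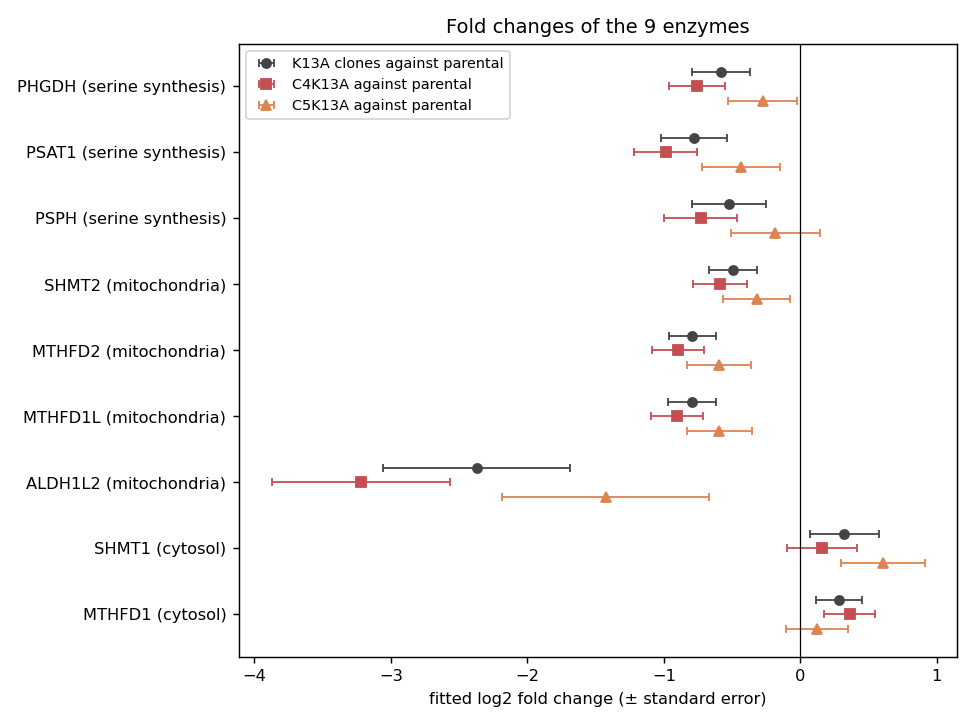
Fitted log2 fold changes of the 9 genes with standard errors (horizontal axis), for both K13A clones together (black), C4K13A (red) and C5K13A (orange), each against parental. Points left of 0 are lower in the clones: the serine synthesis and mitochondrial genes lie left in all 3 comparisons and the cytosolic genes right, with 0 of the 9 called in any of them by edgeR.

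The comparison of mitochondrial with cytosolic steps was made as a ratio of counts within each library, which needs no scaling between libraries. SHMT2 over SHMT1 was 3.10 and 3.45 in C4K13A and 2.91 in C5K13A, against 7.53 and 4.32 in parental. All 3 K13A libraries lay below both parental ones, and the parental libraries differed from each other more than the K13A libraries did. MTHFD2 over MTHFD1 was 0.397 and 0.503 in C4K13A and 0.650 in C5K13A, against 1.04 and 1.09 in parental. The parental libraries thus had slightly more counts on MTHFD2 than on MTHFD1, and every K13A library had fewer. MTHFD1L over MTHFD1 was 0.108 and 0.141 in C4K13A and 0.181 in C5K13A, against 0.288 and 0.304 in parental.

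On the log2 scale the K13A mean minus the parental mean was -0.86 for SHMT2 over SHMT1, with means of 1.65 ± 0.12 in the K13A libraries (SD, n = 3) and 2.51 ± 0.57 in parental (SD, n = 2). It was -1.07 for MTHFD2 over MTHFD1 (-0.98 ± 0.36 and 0.09 ± 0.04) and -1.08 for MTHFD1L over MTHFD1 (-2.83 ± 0.37 and -1.76 ± 0.05). A two-sided exact permutation test over the 5 libraries gave p = 0.1 for each of the 3 ratios, and 0.1 after Benjamini-Hochberg adjustment over them. That is the smallest p this test can give for 3 libraries against 2, so it cannot reach 0.05 here. It takes all 5 libraries as separate units, although 2 of the 3 K13A libraries are of clone C4K13A. The MTHFD2 and MTHFD1L ratios share MTHFD1 as denominator, so they are not independent results. The SHMT2 to SHMT1 difference rested on parental library 1 for part of its size: it was -0.46 without that library and -1.26 without parental library 2. The ratios with MTHFD1 ranged from -1.26 to -0.89 when each library was left out. The MTHFD1 and SHMT1 values carry the overlaps with ZBTB25 and SMCR8 given above. Exons of MTHFD2 share 1324 bases with SLC4A5 (41 counts over the 5 libraries) and 295 with AC006030.1 (1 count). Those of SHMT2 share 33 bases with NDUFA4L2 (1762 counts) and 427 with AC137834.2 (123 counts). MTHFD1 also shares 756 exon bases with AL122035.2 (108 counts). All of these lie on the opposite strand, and the part of such overlaps in the ratios was not tested.

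**Figure D3:**
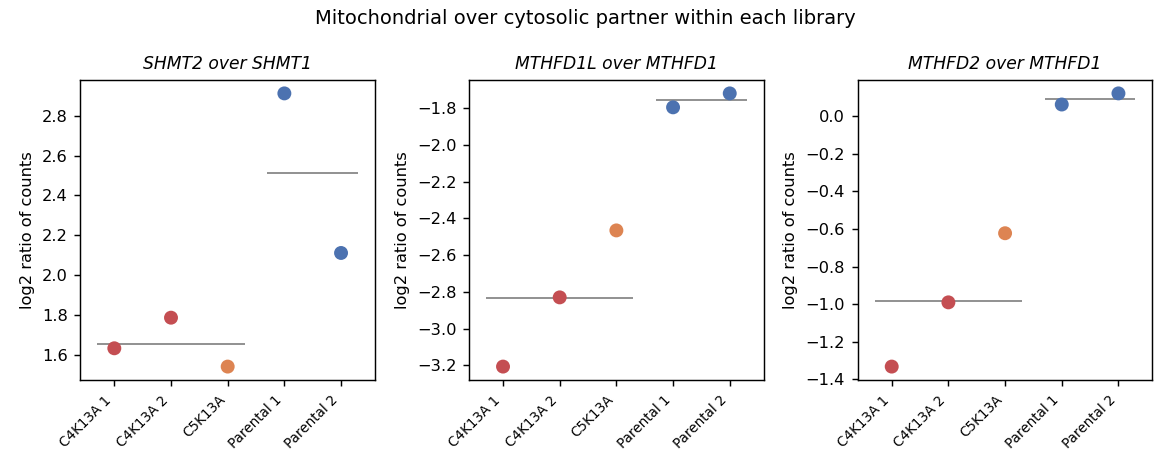
Log2 ratio of counts of a mitochondrial enzyme gene over its cytosolic partner within each library (points; red C4K13A, orange C5K13A, blue parental), with group means of all K13A and of parental libraries as grey lines; the vertical axes differ and do not start at 0. Every K13A point is below both parental points in the 3 panels, and the parental libraries are far apart only for SHMT2 over SHMT1.

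Summed over genes, the 4 mitochondrial folate genes had 399 and 499 CPM in the C4K13A libraries and 542 CPM in C5K13A, against 706 and 725 CPM in parental. The 2 cytosolic genes had 301 and 291 CPM in the C4K13A libraries and 302 CPM in C5K13A, against 208 and 277 CPM in parental. Serine synthesis summed to 526 and 686 CPM in the C4K13A libraries and 857 CPM in C5K13A, against 964 and 1181 CPM in parental. SHMT2 dominated the mitochondrial sum and PHGDH the serine synthesis sum, and all of these sums are given as a description.

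To compare genes with each other, CPM were divided by the length of the longest principal transcript in kilobases (RPKM). By mean RPKM over the 5 libraries the order was PHGDH (203), SHMT2 (166), PSAT1 (118), MTHFD1 (54.1), SHMT1 (43.0), PSPH (27.3), MTHFD2 (26.9), MTHFD1L (9.22) and ALDH1L2 (0.122). Neighbours in that order overlapped in their ranges over libraries, except PSAT1 and MTHFD1, MTHFD2 and MTHFD1L, and MTHFD1L and ALDH1L2. The order depends on the length used: with union exon lengths PSAT1 ranked 1 and PHGDH 3, and MTHFD2 (4) and PSPH (5) came before MTHFD1 (6) and SHMT1 (7). By principal transcript length, SHMT2 exceeded SHMT1 by 3.01, 3.35 and 2.83 times in the K13A libraries and by 7.31 and 4.20 times in parental. MTHFD2 was at 0.279, 0.354 and 0.457 of MTHFD1 in the K13A libraries and at 0.735 and 0.766 in parental. With union exon lengths these became 0.765, 0.969 and 1.25 in the K13A libraries and 2.01 and 2.10 in parental, so which of MTHFD2 and MTHFD1 was higher cannot be told from these counts, while the order of the groups is the same.

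Clone by clone, C4K13A had fitted differences larger in size than C5K13A for 8 of the 9 genes, SHMT1 being the exception. Against parental its log2 fold changes were -0.76 ± 0.20 for PHGDH, -0.99 ± 0.23 for PSAT1, -0.73 ± 0.27 for PSPH and -0.59 ± 0.20 for SHMT2. They were -0.90 ± 0.19 for both MTHFD2 and MTHFD1L, -3.22 ± 0.65 for ALDH1L2, 0.16 ± 0.26 for SHMT1 and 0.36 ± 0.19 for MTHFD1. In this comparison edgeR called 0 of the 9 where it called 0.699% of 22743 genes, with adjusted p from 0.0849 (ALDH1L2) to 0.860 (SHMT1). At an unadjusted p under 0.05 there were 7, all but the cytosolic pair, where 12.2% of all genes reached it. DESeq2 called 5, namely PHGDH, PSAT1, MTHFD2, MTHFD1L and ALDH1L2, where it called 3.71% of the genes with an adjusted p, and limma-voom 0. The count rested on single libraries: edgeR called 4 without parental library 1 (1.38% of all genes called), 3 without parental library 2 (7.59%) and 1 without C4K13A library 1 (1.37%). PSAT1, MTHFD2 and MTHFD1L were called without either parental library, ALDH1L2 without parental library 1 or C4K13A library 1.

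In C5K13A, which has 1 library and is assumed to vary like the others, the same 7 genes had negative fold changes. MTHFD2 was at -0.60 ± 0.24, MTHFD1L at -0.59 ± 0.24, PSAT1 at -0.44 ± 0.28, SHMT2 at -0.32 ± 0.24 and PHGDH at -0.28 ± 0.25. PSPH was at -0.18 ± 0.33 and at 0.17 without parental library 2, ALDH1L2 was at -1.43 ± 0.76, SHMT1 at 0.60 ± 0.31 and MTHFD1 at 0.12 ± 0.23. edgeR called 0 of the 9, where it called 0.0484% of all genes, 0.0308% lower and 0.0176% higher, with 2 at an unadjusted p under 0.05, MTHFD2 and MTHFD1L, where 6.45% of all genes reached it. DESeq2 called 0 of the 9, where it called 1.38% of the genes with an adjusted p. With limma-voom 0 of all genes were called, so its 0 says nothing of these 9. SHMT1 passed without parental library 2 (1.02, adjusted p = 0.0379, with 3.04% of all genes called). Both clones share the parental libraries, so their fold changes are not independent of each other.

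Between the clones, 8 of the 9 genes had higher fitted levels in C5K13A than in C4K13A, from 0.27 ± 0.24 for SHMT2 to 1.79 ± 0.76 for ALDH1L2 on the log2 scale. MTHFD1 was at -0.24 ± 0.23. By edgeR 0 of the 9 were called, where 0.066% of all genes were, 0.0264% lower and 0.0396% higher, and only ALDH1L2 had an unadjusted p under 0.05 (6.42% of all genes did). DESeq2 called 0 of the 9, where it called 1.02% of the genes with an adjusted p. With limma-voom 0 of all genes were called, so its 0 says nothing of these 9. At an unadjusted p under 0.05 both tools had 0 of the 9, where 5.45% (DESeq2) and 4.85% (limma-voom) of genes reached it. The smallest adjusted p was 0.778 for ALDH1L2, so a difference between the clones was not detectable with these libraries.

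Residual ribosomal RNA moved with some of these values within the groups. Among the K13A libraries PHGDH, PSAT1, PSPH, SHMT1, SHMT2, MTHFD2 and MTHFD1L were lowest in C4K13A library 1 (65.4 CPM of mitochondrial ribosomal RNA) and highest in C5K13A (658 CPM). In parental cells all of these but SHMT2 were lower in library 1 (29.03 CPM) than in library 2 (1723 CPM). With the libraries split at 200 CPM, the log2 differences between C4K13A library 1 and parental library 1 were -0.83 for MTHFD2, -0.85 for MTHFD1L, -0.87 for PSAT1, -0.90 for PHGDH and -0.82 for SHMT2. Between C4K13A library 2 with C5K13A and parental library 2 they were -0.84 for MTHFD2 and MTHFD1L, -0.87 for PSAT1, -0.49 for PHGDH and -0.34 for SHMT2. MTHFD2, MTHFD1L and PSAT1 thus differed by nearly the same amount on both sides, whereas PHGDH and SHMT2 differed less on the high side. MTHFD1 was at 0.57 on the low side and 0.09 on the high side, SHMT1 at 0.46 and 0.11, PSPH at -0.67 and -0.62, and ALDH1L2 at -2.08 and -3.16. The low side is 1 library against 1, the high side mixes both clones, and the part of ribosomal RNA in these values was not tested. The K13A library highest in ribosomal RNA is also the only one of C5K13A. Clone and ribosomal RNA therefore cannot be fully told apart among the K13A libraries. MTHFD2 over MTHFD1 differed by -1.40 on the low side and -0.93 on the high side, and SHMT2 over SHMT1 by -1.28 and -0.45. With the split as a covariate edgeR called 0 of the 9 over both clones, where it called 0.344% of all genes.

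The genes with profiles most like those of the 3 genes with the largest folds were found by the root mean square difference of centred log2 CPM over the 5 libraries, among 11970 protein-coding genes. For MTHFD1L the nearest was MTHFD2 at 0.0135, followed by SLC1A5, a glutamine and serine transporter, at 0.0400 and CARS, the cysteinyl-tRNA synthetase, at 0.0708. For MTHFD2 they were MTHFD1L, SLC1A5 (0.0460) and CARS (0.0770). The genes nearest to ALDH1L2 were farther away, with ROBO1, an axon guidance receptor, at 0.241, FGF21, a secreted metabolic hormone, at 0.321 and ANTXR1, an anthrax toxin receptor, at 0.420. FGF21 had 0.599 and 0.117 CPM in the C4K13A libraries and 1.13 CPM in C5K13A, against 2.73 and 4.96 CPM in parental.

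A further 54 genes around these steps were grouped by role, of which 51 passed the filter. In the comparison of both clones with parental 1 of the 51 was called lower and 0 higher, where 0.189% and 0.0145% of all genes tested were. At an unadjusted p under 0.05 there were 7 of the 51 (11% of all genes). DESeq2 called 6 (GLDC, DMGDH, SLC1A4, SLC1A5, CTH and ATF4), where it called 2.8% of the genes with an adjusted p. By limma-voom 0 of the 51 were called, where 0.0533% of all genes were. Negative values were found in 23 of the 51, with a median of 0.03, against 50.6% negative over all genes tested. The 1 called was CTH, the cystathionine lyase that completes cysteine synthesis from serine and homocysteine. CTH fell to 3.07 and 3.32 CPM in the C4K13A libraries and 6.06 CPM in C5K13A, against 18.3 and 25.5 CPM in parental (-2.40 ± 0.32, adjusted p = 0.0446). Its call ended without either parental library (adjusted p = 0.241 and 0.0796 without libraries 1 and 2), without C4K13A library 1 (0.110) or library 2 (0.235), with summed C4K13A libraries (0.160), with limma-voom (0.0514) and with the filter at 5 CPM (0.0869).

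**Figure D4:**
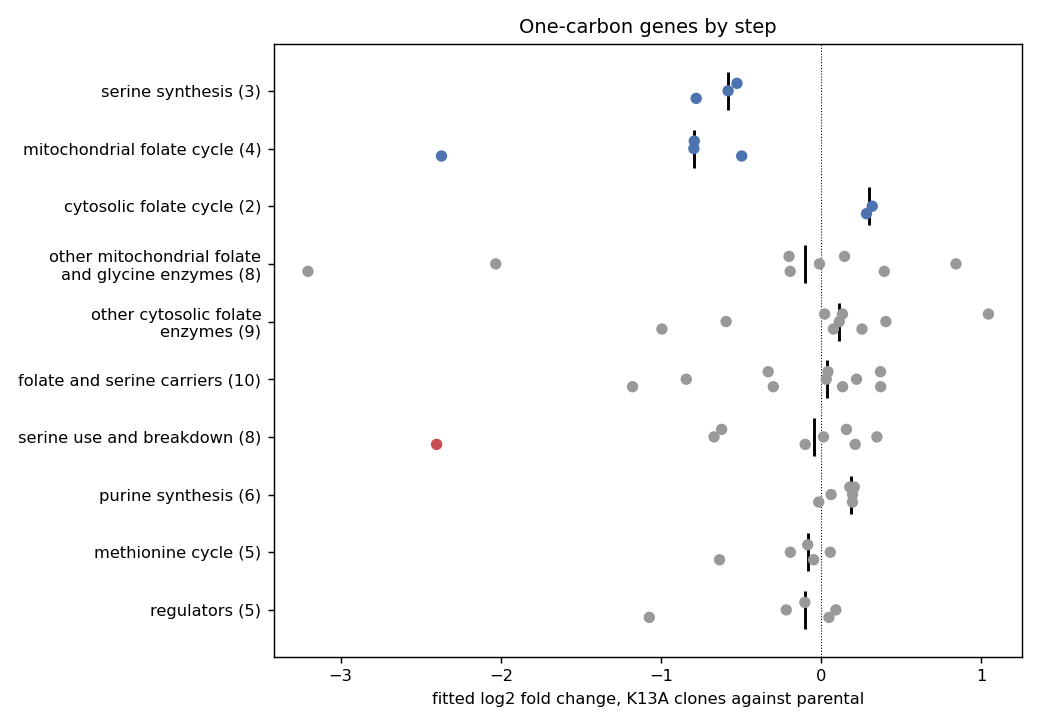
Fitted log2 fold changes of the 9 genes (blue) and 51 related genes (grey) between both K13A clones and parental, by role, with the number of genes tested in brackets; each point is a gene, the black line is the list's median, and red marks an adjusted p under 0.05. The 4 mitochondrial folate genes are all at or below -0.49, while the other mitochondrial folate and glycine enzymes lie on both sides of 0 and CTH is the red point.

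Among the other mitochondrial folate and glycine enzymes edgeR called 0 of 8, limma-voom 0 and DESeq2 2 (GLDC and DMGDH). At an unadjusted p under 0.05 there were 2 of the 8, and 5 were negative, with a median of -0.10. GLDC, the decarboxylase of the glycine cleavage system, had 23 and 1 counts in C4K13A and 10 in C5K13A, against 144 and 107 in parental (-3.20 ± 0.74, adjusted p = 0.192). DMGDH, dimethylglycine dehydrogenase, had 0.379 and 0.841 CPM in the C4K13A libraries and 1.34 CPM in C5K13A, against 4.74 and 2.22 CPM in parental (-2.03 ± 0.54, adjusted p = 0.241). Among the other cytosolic folate enzymes each of the 3 tools called 0 of 9, with 1 at an unadjusted p under 0.05 (edgeR), 2 negative and a median of 0.11. TYMS, thymidylate synthase, had 77.2 and 62.0 CPM in the C4K13A libraries and 59.5 CPM in C5K13A, against 43.8 and 56.2 CPM in parental (0.41 ± 0.19, adjusted p = 0.475).

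Of 10 carriers of folate and serine that passed the filter edgeR and limma-voom called 0 over both clones and DESeq2 called 2, SLC1A4 and SLC1A5, the count at an unadjusted p under 0.05 being also 2; 4 were negative. SLC1A4, a neutral amino acid transporter that carries serine, had 18.0 and 20.0007 CPM in the C4K13A libraries and 26.0 CPM in C5K13A, against 47.4 and 49.1 CPM in parental. The groups were well apart for SLC1A4 (-1.18 ± 0.19, adjusted p = 0.0750). SLC1A5 had 86.5 and 104 CPM in the C4K13A libraries and 114 CPM in C5K13A, against 166 and 198 CPM in parental (-0.84 ± 0.17, adjusted p = 0.157). Purine synthesis, the main user of cytosolic formyl groups, had 0 of 6 called by each of the 3 tools and 0 at an unadjusted p under 0.05 (edgeR), with 1 negative and a median of 0.19. Its amidotransferase gene PPAT was at 0.20 ± 0.15 (adjusted p = 0.665) and ATIC, which adds the last formyl group, at 0.21 ± 0.17 (adjusted p = 0.685). The methionine cycle likewise had 0 of 5 called by each tool, and at an unadjusted p under 0.05 edgeR and limma-voom had 0 and DESeq2 1, with CBS at -0.63 ± 0.28 (adjusted p = 0.461) and AHCY at -0.19 ± 0.14 (adjusted p = 0.666).

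Of the 5 listed regulators edgeR and limma-voom called 0 over both clones, with 1 at an unadjusted p under 0.05, and DESeq2 called ATF4. ATF4 had 365 and 416 CPM in the C4K13A libraries and 483 CPM in C5K13A, against 902 and 871 CPM in parental (-1.07 ± 0.17, adjusted p = 0.0735), and KDM4C, a histone demethylase, was at -0.22 ± 0.22 (adjusted p = 0.756). In C4K13A against parental 27 of the 51 genes were negative, and edgeR called 3 lower and 0 higher. Of all genes tested 0.602% and 0.0967% were called lower and higher. At an unadjusted p under 0.05 edgeR had 11 of the 51 (12.2% of all genes). DESeq2 called 6 of the 51 (GLDC, DMGDH, SLC1A4, SLC1A5, CTH and ATF4), where it called 3.71% of the genes with an adjusted p. By limma-voom 3 were called (SLC1A4, CTH and ATF4), where 0.378% of all genes were. The 3 of the 51 called by edgeR were CTH (-2.78 ± 0.26, adjusted p = 0.00782), SLC1A4 (-1.35 ± 0.18, adjusted p = 0.0214) and ATF4 (-1.18 ± 0.18, adjusted p = 0.0362). SLC1A4 lost this call without C4K13A library 1 (0.0779) or library 2 (0.0632), and ATF4 without library 1 (0.228), without library 2 (0.174) and with the filter at 5 CPM (0.0544). In C5K13A against parental edgeR and limma-voom called 0 of the 51 and DESeq2 2 (ALDH1L1 and CTH, where 1.38% of genes with an adjusted p were called), with 6 at an unadjusted p under 0.05 by edgeR (6.45% of all genes). In C5K13A against C4K13A the 3 tools called 0 of the 51, with 5 at an unadjusted p under 0.05 by edgeR (6.42% of all genes).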

How the data were processed

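RNA of 5 C4-2B libraries was compared, grouped by sample title. The authors deposited raw, whole-number read counts per Ensembl gene, 1 column per library. Per the submitters' processing notes, featureCounts 1.4.6-p5 (Subread) followed STAR 2.5 and bcl2fastq. Build, annotation, strand setting and the handling of multiply aligned reads: not given in the sources used here. Symbols, positions and lengths came by ID from GENCODE v29 and promoters from RefSeq. RPKM used the longest transcript tagged principal by APPRIS.

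Counts were tested with edgeR 4.0.16 under R 4.3.3, by glmQLFTest on glmQLFit after filterByExpr and TMM; adjustment was by Benjamini-Hochberg over all genes, threshold 0.05. Both clones against parental used 2 groups; the other comparisons came from 1 fit of 3 groups. Standard errors are log2 fold changes over the square root of F. Alternatives were RLE factors, no filter, a filter at 5 CPM, DESeq2 1.42.0, limma-voom 3.58.1, leaving out ribosomal, small RNA and mitochondrial genes, a ribosomal RNA covariate, summed C4K13A libraries, a 3-group mean, a replicate block, and each library left out. The fits were tested on simulated data. The 9 genes and the gene lists were chosen with earlier results of these data known. Named besides the 9 were called genes of each list, or else the 2 with the smallest adjusted p; 1 of these is not reported here. Duplicate libraries were looked for and not found, with a chi-square of at least 48.7 a gene for every pair.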

Additional observations from a re-analysis of the deposited data

How the results depend on the processing

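In the main fits 0 of the 9 were called in any comparison, so there was no call to lose. Of 428 alternative values of the 9 genes, 394 kept the direction and the side of the threshold, 31 newly passed it and 3 turned direction. The 3 were SHMT1 over both clones (-0.00396 to 0.74 with a library left out, lowest without parental library 1) and in C4K13A (-0.17 to 0.58, likewise), and PSPH in C5K13A (-0.47 to 0.17, highest without parental library 2). Over both clones the number called of the 9 was 0, but 4 without a filter and 2 with DESeq2; leaving out each library gave 0 each time. In C4K13A it was 6 without a filter, 5 with DESeq2 and 0 to 4 when a library was left out. In C5K13A it was 0 to 1 when a library was left out. Without a filter 1167 of 37428 genes (3.12%) were called over both clones and 1346 (3.6%) in C4K13A. With the main filter these were 42 of 20649 (0.203%) and 159 of 22743 (0.699%). The filter at 5 CPM gave 2 of 11439 (0.0175%) and 32 of 11950 (0.268%). DESeq2 called 555 (2.8% of genes with an adjusted p) and 745 (3.71%), and limma-voom 11 (0.0533%) and 86 (0.378%). With a library left out the counts over all genes ran from 0 (without parental library 1) to 130 (without C5K13A) over both clones and from 130 to 1667 (without parental library 2) in C4K13A. In C5K13A against parental, and between the clones, 11 and 15 were called, against 578 and 423 without a filter, 235 and 182 with DESeq2, 0 and 0 with limma-voom, 0 and 0 at 5 CPM, and up to 668 and 155 with a library left out. Over both clones 11 (0.0534%) were called with C4K13A summed, 71 (0.344%) with the ribosomal RNA covariate and 105 (0.462%) as a 3-group mean. The cause of these differences was not tested.

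The replicate numbers of the titles are shared by C4K13A and parental only. With a replicate block on them 5 of the 9 were called in C4K13A, namely PSAT1, PSPH, MTHFD2, MTHFD1L and ALDH1L2. Of the 20358 genes tested with this block 885 (4.35%) were called, against 0.699% in the main fit. The deviations of same-numbered libraries correlated at 0.17 over 20649 genes, and 2 pairs do not show that the numbers pair the samples. The title of C5K13A has no number, but its column name has 1. A block over all 5 libraries with that number, chosen after seeing the data, called 0 of the 9 over both clones. It called 68 genes in all (0.329%), and CTH lost its call (edgeR, adjusted p = 0.0598).

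Of 568 values of the other named genes, 515 kept the direction and the side of the threshold, 35 newly passed it, 13 lost a call and 5 turned direction. With a library left out, KDM4C in C4K13A ran from -0.268 to 0.0445 and, between the clones, GLDC from -0.953 to 3.21, ATIC from -0.0697 to 0.266 and AHCY from -0.0790 to 0.00353; GLDC was also at 0.84 with limma-voom. The 3 partner ratios kept their direction in all 6 alternatives each. The limits are the 5 libraries and, for ALDH1L2 and GLDC, counts as low as 4 and 1 per library.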

Other observations

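ALDH1L1, the cytosolic counterpart of ALDH1L2, was at 3.73 and 2.83 CPM in the C4K13A libraries and 0.848 CPM in C5K13A, against 7.48 and 2.36 CPM in parental. The groups overlapped, and it was not called over both clones (edgeR, -0.99 ± 0.63, adjusted p = 0.605). MTHFD2L, the mitochondrial relative of MTHFD2, was at 9.40 and 9.16 CPM in the C4K13A libraries and 8.13 CPM in C5K13A, against 11.4 and 9.01 CPM in parental, with overlapping groups (-0.20 ± 0.21, adjusted p = 0.767). Both genes were chosen after their values were seen.

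PSPH has a pseudogene of the same name, PSPHP1, that took 555 counts over the 5 libraries where PSPH took 14602 (3.80%). The processed pseudogenes of MTHFD1 and PSAT1 took up to 1.78% of the counts of their parent genes each. An intronic pseudogene in MTHFD1L, AL133260.1, shares 0 exon bases with it and had 9.06 to 10.4 CPM in the K13A libraries and 12.6 and 12.3 CPM in parental.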
